A study of Mus musculus with 2 samples.

Results

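Among the neutrophils of 2 mouse pancreatic tumours, a subset was defined by unique molecular identifiers (UMIs) of Ero1l, Bnip3 and Mreg, and it held 2118 cells of 7842 neutrophils and of 24160 cells kept. The deposited matrices hold 25865 barcodes. A neutrophil was a cell with at least 0.4% of its UMIs from S100a8, S100a9 and Csf3r, at most 1 Csf1r UMI and at most 2 UMIs of Krt8 and Krt18. A member had at least 3 UMIs of Ero1l, Bnip3 and Mreg together, fewer than 4 of Cxcr2, Retnlg and Lrg1, none of Siglecf and fewer than 4 of Rsad2, Ifit1, Ifit3 and Cmpk2. These last 3 conditions, called exclusion gates here, keep out neutrophils with transcripts of recent recruitment, of Siglecf and of the interferon response. Because measured values chose the members, the levels of these genes are given as a description.

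Both tumours grew in the mouse pancreas from injected KPC cells, a mouse pancreatic cancer cell line. The cells carried the control hairpin shV in one group and a hairpin against Zeb1, shZEB1, in the other, and 1 dissociated tumour of each group went into a 10x Genomics 3' library. Per the study's text, the mice of both groups had received gemcitabine, which the labels do not name. Its methods list C57BL/6J, BABL/c (so spelled there) and NSG mice a few weeks old, and KPC lines made by lentivirus and drug selection. The text links the sequenced tumours to an experiment it describes in immunocompetent mice, which NSG mice are not. The exact strain and the selected line of these 2 tumours are not given in the sources used here. The hairpin was in the injected cells and the neutrophils came from the host. With 1 library per group, mouse, tumour, dissociation, library and group cannot be told apart, no difference has a replicate check and no test was made. Parentheses hold 95% intervals, which cover counting error alone.

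Hypoxia slows the prolyl hydroxylases that mark the HIF alpha subunits for destruction, and the stabilized factors then raise genes of glycolysis, oxygen-sparing metabolism and mitochondrial turnover. Neutrophils rely largely on glycolysis and enter poorly perfused parts of tumours, where they live longer and take up states that differ from those in blood. Ero1l (Ero1a in newer naming) encodes an oxidase of disulfide bond formation in the endoplasmic reticulum, Bnip3 a mitochondrial receptor for mitophagy, and Mreg melanoregulin, a protein of lysosome-related organelles.

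The KPC-shV-labelled library held 130941086 UMIs and the KPC-shZEB1-labelled library 143461224. As a check of the labels, Zeb1, the targeted gene, was at 164 CPM (156–173) and 195 CPM (183–207) in 420 and 275 keratin-positive cells without Ptprc UMIs. CPM are UMIs of a gene per 1000000 UMIs, both summed over a group of cells, and pairs of values give KPC-shV first. Zeb1 RNA was thus not lower in these cells of the KPC-shZEB1-labelled library. Zeb1 was higher in T cells, at 1428 and 1616 CPM, and in B cells, at 418 and 464 CPM. The part of free RNA from such cells in the keratin-positive values was not tested. The keratin gate does not separate tumour cells from other epithelium and protein was not measured here, so this check does not settle the labels. Directions below are between labelled libraries. The study itself reports the knockdown efficiency in its KPC cells and Zeb1 staining of tumours. The libraries shared 46 barcodes, of which 6 were members in the KPC-shV-labelled library and 0 in the KPC-shZEB1-labelled library.

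The subset made up a smaller part of the neutrophils in the KPC-shZEB1-labelled library. It held 1645 of 5268 neutrophils, 31.2% (29.98–32.5), in the KPC-shV-labelled library and 473 of 2574, 18.4% (16.9–19.9), in the KPC-shZEB1-labelled library, a ratio of 0.588 (0.5302–0.652). Thinning every cell to 2000 UMIs, which left out 467 and 234 shallower neutrophils, gave 28.8% (27.5–30.1) and 14.7% (13.2–16.2). Neutrophils as a whole were 44.98% (44.1–45.9) and 20.7% (19.97–21.4) of kept cells, so the subset was 14.04% (13.4–14.7) and 3.8001% (3.47–4.15) of kept cells.

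The difference lay at both ends of the distribution of rule-gene UMIs. Neutrophils with no UMI of the 3 genes were 18.9% (17.9–19.99) and 38.5% (36.7–40.5), and those with 10 or more were 19.9% (18.8–20.98) and 6.53% (5.603–7.55). Cells with exactly 2 UMIs, just outside the threshold, were 10.9% and 10.5%, and those with exactly 3, just inside, were 8.09% and 6.53%. No gap separated members from other neutrophils, so the subset is a range of a graded signal. B cells, which are not known for this set of genes, show the level that free RNA can give at a like depth. In B cells, gated on Cd79a, 3 or more rule-gene UMIs were found in 4.15% (2.01–7.498) of 241 cells and 2.06% (1.26–3.16) of 973, at median depths of 3862 and 3455 UMIs, against 55.3% (53.9–56.6) and 29.6% (27.8–31.4) of neutrophils at 3180.5 and 2909.5 UMIs. T cells reached 9.12% and 4.57% at 5168 and 4763 UMIs. Macrophages reached 30.9% and 24.2%, but at 11578 and 10725.5 UMIs. The keratin-positive cells reached 56.9% (52.02–61.7) and 38.5% (32.8–44.6), at 23161 and 16889 UMIs. Per UMI, Ero1l was at 141 and 119 CPM in macrophages, 185 and 175 CPM in keratin-positive cells and 949 and 462 CPM in neutrophils. Median depths of members were close to those of the rest, at 3024 and 2924 UMIs against 3242 and 2904 in other neutrophils.

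**Figure D1:**
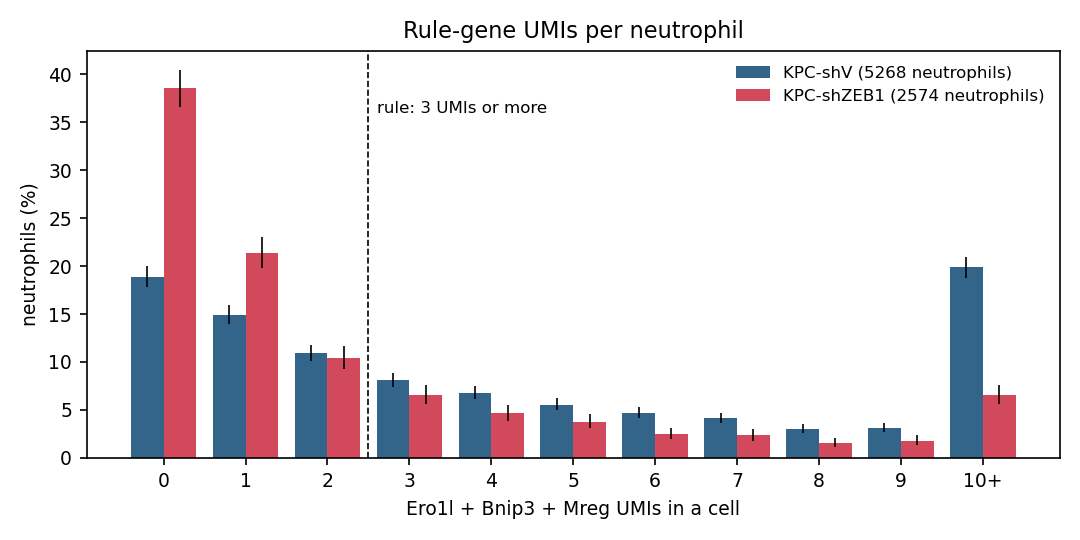
Share of neutrophils (%, y axis) by the number of Ero1l, Bnip3 and Mreg UMIs in a cell (x axis), with 5268 neutrophils of the KPC-shV-labelled library and 2574 of the KPC-shZEB1-labelled library. Bars are shares, lines exact 95% binomial intervals for counting error and the dashed line the rule's threshold. The lowest bin is higher in the KPC-shZEB1-labelled library, and the highest bin, 19.9% and 6.53%, is higher in the KPC-shV-labelled library.

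The exclusion gates removed many cells with the same signal. Of 2911 and 762 neutrophils past the UMI threshold, 43.5% (41.7–45.3) and 37.9% (34.5–41.5) were left out by a gate. The gate on Cxcr2, Retnlg and Lrg1 held 938 and 185 of them, the gate on interferon genes 443 and 90, and the gate on Siglecf 106 and 54. Among neutrophils held by the interferon gate, 65.9% (62.2–69.5) and 37.5% (31.4–43.96) passed the UMI threshold. The share was 49.1% (46.8–51.4) and 24.8% (21.7–28.02) among those held by the Cxcr2, Retnlg and Lrg1 gate, and 36.1% (30.6–41.8) and 23.9% (18.5–29.997) among Siglecf-positive cells. Among neutrophils that passed every gate the share was 59.3% (57.4–61.1) and 31.9% (29.5–34.3). These shares are not at equal depth. Median UMIs were 3436 and 3076 in the interferon cells, 3405 and 3042 in the Cxcr2, Retnlg and Lrg1 cells, and 3713.5 and 3391.5 in Siglecf-positive cells. They were 3024 and 2924 in members, and 2978 and 2762 in other neutrophils past every gate. The remaining neutrophils were therefore compared in 2 ways, as all other neutrophils, 3623 and 2101 cells, and as those that passed every gate, 1129 and 1011 cells. Cells of the second group all hold fewer than 3 rule-gene UMIs, while the first holds 1266 and 289 cells past the threshold. Ratios against the second group are thus between cells that the rule sorted further apart, and are given as a description.

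The genes that chose the members are described first, with no reading of their difference. Ero1l lies at chr14:45283087-45318771, Bnip3 at chr7:138890836-138909519 and Mreg at chr1:72159442-72212307, all on the minus strand (GRCm38). Ero1l was at 1633 CPM in the subset against 665 CPM in other neutrophils of the KPC-shV-labelled library, and 1399 against 254 CPM in the KPC-shZEB1-labelled library. Bnip3 was at 573 against 218 CPM and 485 against 84.1 CPM, and Mreg at 684 against 220.0 CPM and 632 against 105 CPM. An Ero1l UMI was seen in 89.7% (88.1–91.1) and 88.6% (85.4–91.3) of members, a Bnip3 UMI in 70.2% (67.9–72.4) and 61.1% (56.5–65.5), and a Mreg UMI in 70.8% (68.6–73.01) and 61.1% (56.5–65.5). All 3 were seen together in 44.4% (42.02–46.9) and 30.9% (26.7–35.2).

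The other 2 markers of the subset were not used by the rule. Rhov, a small GTPase, was at 74.7 CPM (67.5–82.5) against 44.5 in other neutrophils and at 58.9 CPM (47.1–72.7) against 27.7, ratios of 1.68 (1.47–1.91) and 2.13 (1.63–2.76). Lyst, a regulator of lysosome size and trafficking, was at 1858 CPM (1821–1895) against 1525 and at 1412 CPM (1351–1474) against 1038, ratios of 1.22 (1.19–1.25) and 1.36 (1.29–1.43). Both were higher in the subset in each library, Lyst by less than 2-fold. Among neutrophils held by the Cxcr2, Retnlg and Lrg1 gate and past the UMI threshold, Lyst reached 2149.8 (2103–2197) and 1889.9 (1790.3–1994) CPM, above its level in the subset, so Lyst did not set the subset apart from those cells. Rhov was at 68.9 (60.8–77.8) and 94.1 (72.9–119) CPM there, no lower than in the subset beyond counting error. In cells past the threshold held by the interferon gate it was at 69.5 (57.7–82.9) and 119 (82.01–167) CPM. In Siglecf-positive ones it was at 20.6 (10.3–36.9) and 11.6 (2.39–33.8) CPM. Of these 3 groups, Rhov thus set the subset apart from the Siglecf-positive cells alone.

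Neutrophil markers outside the gate were present in the subset. Clec4d, a C-type lectin receptor of myeloid cells, was at 1628 against 1672 CPM and 1512 against 1676 CPM. Hdc, which makes histamine, was at 1539 against 2450.0 CPM and 1727 against 2808 CPM, and G0s2, an inhibitor of lipolysis, at 4889 against 8896 CPM and 4199 against 7353 CPM. S100a8 and S100a9, which the gate used, were also lower in the subset, at 8624 against 11407 CPM and 5717 against 7459 CPM and 14256 against 19300.5 CPM and 10760.0 against 15002 CPM. Of 11 neutrophil markers compared, 11 were lower in the subset than in other neutrophils in both libraries, with medians of -0.67 and -0.70 on the log2 scale, and 9 were lower against the gate-passing neutrophils, with medians of -0.26 and -0.42. Cxcr2 and Retnlg of this list were used by the rule.

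Macrophage, epithelial and fibroblast markers differed little between members and other neutrophils. The 8 macrophage markers summed to 889 against 886 CPM and 2346 against 2377 CPM, and the 6 keratin and epithelial markers to 307 against 303 and 414 against 432. The 6 T cell markers were low and differed in 1 library, at 35.5 against 20.1 and 55.5 against 59.2. Ly6c2, a monocyte marker, was lower in the subset, at 30.5 against 65.2 CPM and 20.5 against 55.97 CPM. The 6 fibroblast markers summed to 553 against 553 and 739 against 720.4 CPM, the 6 dendritic cell markers to 43.3 against 25.8 and 52.7 against 38.9, the 5 B cell markers to 29.2 against 33.7 and 53.4 against 75.6, and the 4 erythroid and platelet markers to 50.3 against 85.7 and 52.03 against 59.6. The 5 basophil, mast cell and eosinophil markers summed to 3.24 against 4.43 and 2.74 against 6.39 CPM, with Epx at 0 in members of both libraries. Of the lists, 1 dendritic marker, Cd209a, was also at 0 in members of both. Pecam1, an adhesion molecule listed with the endothelial markers and also made by neutrophils, was higher, at 162 against 97.5 CPM and 147 against 59.2 CPM. The endothelial genes Cdh5 and Kdr were at 5.72 and 1.52 CPM in members of the KPC-shV-labelled library and at 4.11 and 0.685 CPM in the KPC-shZEB1-labelled library. Doublet scores above 0.2 were found in 1.88% and 1.06% of members, and in 2.18% and 1.38% of other neutrophils.

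Hypoxia-response genes outside the rule were higher in the subset in both libraries. Of a list of 22, which leaves out Ero1l and Bnip3, 16 reached 50 CPM and 16 were higher than in other neutrophils in both libraries. Their median log2 ratio was 0.86 in the KPC-shV-labelled library and 1.24 in the KPC-shZEB1-labelled library, beside medians of 0.07 and 0.04 over all 2805 genes compared. P4ha1, Higd1a and Fam162a, 3 of the 16, were at least 2-fold higher in both libraries, as were 66 (2.35%) of all genes compared. Against gate-passing neutrophils the count was 8 of 16, beside 110 of 2871 genes (3.83%), and the medians were 1.13 and 1.39. Genes were compared where the subset or the other neutrophils reached 50 CPM in each library, and log2 ratios have 1 CPM added to both sides. Here and below, counts of listed genes merely higher or lower are given without the share over all genes. The medians over all genes are their only reference.

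P4ha1, a subunit of the collagen prolyl hydroxylase, was at 594 CPM (574–616) in the subset against 239 CPM in other neutrophils of the KPC-shV-labelled library, and at 424 CPM (392–459) against 150.4 CPM in the KPC-shZEB1-labelled library. The ratios were 2.48 (2.36–2.61) and 2.82 (2.55–3.12). Higd1a, a mitochondrial protein of hypoxia survival, was at 433 against 181 CPM and 270.4 against 79.7 CPM, ratios of 2.398 (2.26–2.54) and 3.39 (2.97–3.87). Fam162a, a HIF-responsive mitochondrial protein, was at 753 against 368 CPM and 639 against 195 CPM, ratios of 2.04 (1.96–2.13) and 3.28 (3.01–3.57). All 3 were lower in gate-passing neutrophils than in the other neutrophils as a whole, at 163, 88.7 and 201 CPM in the KPC-shV-labelled library.

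Hilpda, a lipid droplet protein that blocks triglyceride breakdown, was at 2249.6 CPM (2209–2291) against 1167 CPM and 1735 CPM (1668–1804) against 618 CPM, ratios of 1.93 (1.88–1.97) and 2.81 (2.67–2.95). Bnip3l, the paralogue of Bnip3, had ratios of 1.99 (1.88–2.102) and 2.95 (2.65–3.28), and the histone demethylase gene Kdm3a 1.78 (1.65–1.92) and 2.83 (2.46–3.25). Ddit4, an inhibitor of mTORC1, was at 77.6 against 42.1 CPM and 82.2 against 27.5 CPM. The oxygen sensors differed in size of effect, with ratios of 1.904 (1.71–2.13) and 2.104 (1.69–2.602) for Egln1 and 1.24 (1.19–1.28) and 1.44 (1.33–1.55) for Egln3. Vegfa, the angiogenic growth factor, was at 215 against 135 CPM and 213 against 166 CPM, ratios of 1.59 (1.47–1.72) and 1.28 (1.13–1.45). In Siglecf-positive cells past the UMI threshold Vegfa was no lower than in the subset, at 214 (177–257) and 420 (345–507) CPM. It was at 157 and 126 CPM in those held by the Cxcr2, Retnlg and Lrg1 gate and at 181 and 116 CPM in the interferon ones. Ier3 and Bhlhe40 were the least different, at 1.08 and 1.11 for Ier3 and 1.104 and 1.15 for Bhlhe40. Hif1a, the gene of the factor itself, was lower in the subset, at 343 against 427 CPM and 346 against 391 CPM, and its partner Arnt was at 81.02 against 88.8 CPM and 72.6 against 104 CPM.

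Glycolytic genes were higher as well, by less. Of 19 listed, 18 were compared, 16 were higher and 2 lower in both libraries, and the medians were 0.57 and 0.88. Gpi1, glucose phosphate isomerase, was the 1 gene past 2-fold in both, at 414 against 204 CPM and 407 against 152 CPM, ratios of 2.03 (1.92–2.15) and 2.69 (2.42–2.98). Tpi1 had ratios of 1.903 (1.81–2.003) and 2.64 (2.39–2.91), and Ldha, the lactate dehydrogenase subunit, 1.79 (1.72–1.86) and 2.39 (2.22–2.58). Gapdh was at 2081 against 1398 CPM and 2295 against 1223 CPM. The glucose transporter Slc2a1 was at 498 against 337 CPM and 481 against 271 CPM, whereas the transporter Slc2a3 was at 48.2 against 62.8 CPM and 59.6 against 81.8 CPM and the lactate exporter Slc16a3 at 251 against 300.1 CPM and 264 against 306 CPM, both lower in the subset. Against gate-passing neutrophils, 9 of 17 were at least 2-fold higher in both libraries, with medians of 1.00 and 1.06. Among other genes past 2-fold, named after their values were seen, were the glycogen enzymes Gys1, Gbe1 and Pgm1, with Gbe1 at 296 against 131 CPM and 256 against 71.2 CPM.

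**Figure D2:**
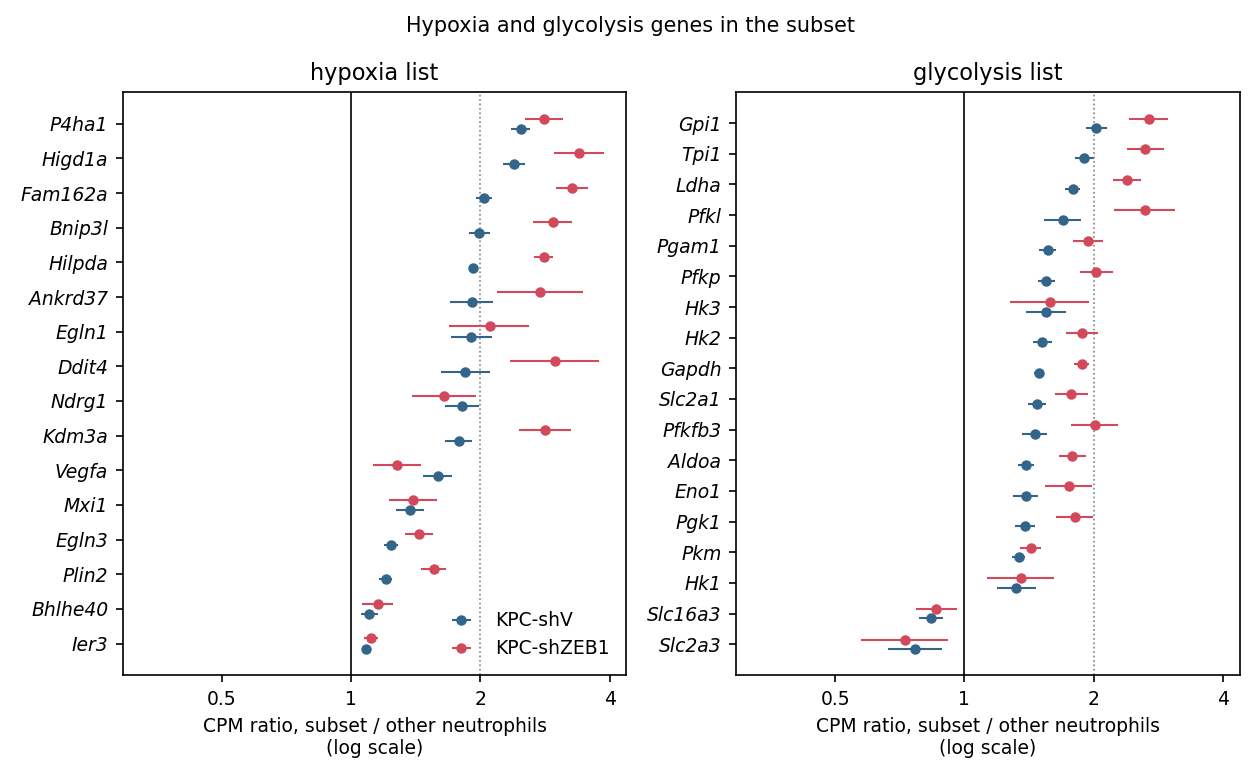
CPM ratio of the subset over all other neutrophils (x axis, log scale) for each compared gene of the hypoxia list (left, 16 genes) and the glycolysis list (right, 18 genes). Points are the KPC-shV-labelled library and the KPC-shZEB1-labelled library, lines are exact 95% counting intervals, and the dotted line marks 2-fold. All 16 hypoxia genes lie above 1 in both libraries, and Slc2a3 and Slc16a3 lie below 1 on the right.

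The sequences before the starts of the rule genes and of P4ha1, the hypoxia-list gene with the highest ratio in both libraries by the smaller of the 2, are shown because the HIF factors bind a short core, ACGTG or GCGTG, in the control regions of their targets. Each run holds the 250 bases before a RefSeq start (GRCm38.p6), 5′ to 3′ on the gene's strand. The gene spans given above come from GENCODE. For Ero1l the RefSeq start lies inside that span, so most of its window, with all 3 of its matches, lies there too. Capitals mark ACGTG or GCGTG on either strand (CACGT or CACGC read on the gene's strand), and the palindrome CACGTG counts as 2 matches.
Ero1l, chr14:45318573-45318822, minus strand: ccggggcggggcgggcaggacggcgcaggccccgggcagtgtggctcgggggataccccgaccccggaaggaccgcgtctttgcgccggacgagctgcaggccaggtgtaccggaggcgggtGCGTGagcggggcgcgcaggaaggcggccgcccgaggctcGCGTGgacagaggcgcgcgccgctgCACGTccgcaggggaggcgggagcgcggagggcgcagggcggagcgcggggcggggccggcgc
Bnip3, chr7:138909507-138909756, minus strand: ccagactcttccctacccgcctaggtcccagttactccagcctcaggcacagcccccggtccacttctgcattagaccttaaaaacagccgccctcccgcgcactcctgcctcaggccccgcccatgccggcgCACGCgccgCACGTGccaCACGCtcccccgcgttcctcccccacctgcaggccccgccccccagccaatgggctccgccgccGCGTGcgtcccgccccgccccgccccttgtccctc
Mreg, chr1:72212315-72212564, minus strand: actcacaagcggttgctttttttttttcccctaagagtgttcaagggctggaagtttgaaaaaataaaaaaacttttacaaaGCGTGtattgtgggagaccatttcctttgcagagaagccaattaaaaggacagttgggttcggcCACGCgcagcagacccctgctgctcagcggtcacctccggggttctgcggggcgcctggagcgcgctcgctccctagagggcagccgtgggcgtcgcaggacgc
P4ha1, chr10:59323046-59323295, plus strand: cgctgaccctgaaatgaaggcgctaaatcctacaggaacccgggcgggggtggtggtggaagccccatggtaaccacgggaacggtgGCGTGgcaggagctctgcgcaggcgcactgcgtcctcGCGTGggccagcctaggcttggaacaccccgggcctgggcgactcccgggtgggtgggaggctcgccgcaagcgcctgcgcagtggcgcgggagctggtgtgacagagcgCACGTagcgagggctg

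The windows held 3 matches for Ero1l, 5 for Bnip3, 2 for Mreg and 3 for P4ha1, and 0 for Gpi1 and Hilpda. The motifs are common. They occur in 38.6% of all 32851 windows of this length, and in 60.2% of the first windows of 2263 genes compared that had one. Of the genes at least 2-fold higher in the subset in both libraries, 54 of 66 had a window and 61.1% of these held a match, and of those at least 2-fold lower, 48 of 57 had a window and 33.3% held one. The exclusion gates shape the list of lower genes. Against gate-passing neutrophils, a match was held by 67.8% of 87 higher genes with a window and by 54.5% of 22 lower genes with one. A match describes the letters and no binding was measured.

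Across all genes, 66 of 2805 (2.35%) were at least 2-fold higher and 57 (2.03%) at least 2-fold lower in the subset than in other neutrophils in both libraries. By the smaller of the 2 log2 ratios, the highest after Gas2l3 were Rab15, Prok2, Echdc3 and Mreg. Gas2l3, which links actin and microtubules, was at 83.3 against 23.002 CPM and 82.2 against 12.3 CPM, ratios of 3.62 (3.12–4.22) and 6.67 (4.99–8.95). Prok2, a secreted chemokine-like protein of myeloid cells, was at 94.4 against 28.5 CPM and 56.1 against 8.06 CPM. Fnip2, a partner of folliculin in nutrient sensing at lysosomes, was at 1153 CPM (1124–1183) against 412 CPM and 917 CPM (868–967) against 209.8 CPM. The inducible heat shock gene Hspa1b was at 461 against 163 CPM and 317 against 84.9 CPM. Nceh1, a cholesterol ester hydrolase, had ratios of 2.75 (2.48–3.04) and 4.09 (3.397–4.91). The remaining genes of the 15 highest were Atp6v0d2, Bnip3, Cldn1, Kntc1, Mthfd1l, Stxbp5 and Syne1.

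None of these 15 genes was on the hypoxia list, which leaves out the genes of the rule. Of lysosome and vesicle genes, 11 of 16 were compared, 9 were higher in both libraries, and 3 were past 2-fold. Atp6v0d2, a subunit of the vacuolar proton pump, was at 150.2 against 48.1 CPM and 147 against 33.2 CPM, ratios of 3.13 (2.81–3.48) and 4.42 (3.64–5.36). Gpnmb, a lysosomal glycoprotein, was at 92.6 against 35.6 CPM and 136 against 24.9 CPM, and Npc1, the lysosomal cholesterol exporter, at 109.8 against 46.5 CPM and 102 against 31.03 CPM. Ctsb and Ctsz, lysosomal proteases, had ratios of 1.41 (1.35–1.46) and 1.604 (1.504–1.71) and 1.38 (1.31–1.45) and 1.56 (1.43–1.696). Rab7 and Lamp2, of late endosomes and lysosomes, were lower, with ratios of 0.8497 and 0.891 and of 0.829 and 0.759. Gpnmb had a ratio of 5.14 (3.93–6.79) against gate-passing neutrophils in the KPC-shZEB1-labelled library, but 1.81 (1.52–2.16) in the KPC-shV-labelled library. In the KPC-shZEB1-labelled library it was uneven, at 54.5 CPM in members with 3 to 4 rule-gene UMIs, 235 with 5 to 9 and 76.1 with 10 or more. Whether a few cells gave most of its UMIs was not tested, and the intervals do not cover it.

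Iron and stress genes were mixed. Hmox1, which breaks down haem, was at 417 against 193 CPM and 287 against 81.98 CPM, ratios of 2.16 (2.04–2.29) and 3.499 (3.07–3.98). The ferritin chains were higher, with Fth1 at 34992 against 28760.4 CPM and 31732 against 23233 CPM and Ftl1 at 6176 against 4040.3 CPM and 5137 against 2751 CPM. Txnrd1, a thioredoxin reductase, was lower, with ratios of 0.669 (0.637–0.703) and 0.722 (0.668–0.7801). Of genes of protein folding and stress in the endoplasmic reticulum, where Ero1l acts, 10 of 12 compared were higher and 1 lower in both libraries, none past 2-fold, with medians of 0.42 and 0.50. Ddit3, the stress factor CHOP, had ratios of 1.86 (1.71–2.03) and 2.17 (1.85–2.53), and the chaperone Hspa5 1.24 (1.19–1.29) and 1.45 (1.36–1.54). Xbp1, a factor of the unfolded protein response, was lower, at 321 against 539 CPM and 307 against 423 CPM. Of 4 mitophagy and autophagy genes compared, Sqstm1, an autophagy receptor, had ratios of 1.54 (1.47–1.61) and 1.5003 (1.38–1.63), while Map1lc3b was at 1.001 and 1.06. The 10 mitochondrially encoded genes had medians of -0.02 and -0.04.

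**Figure D3:**
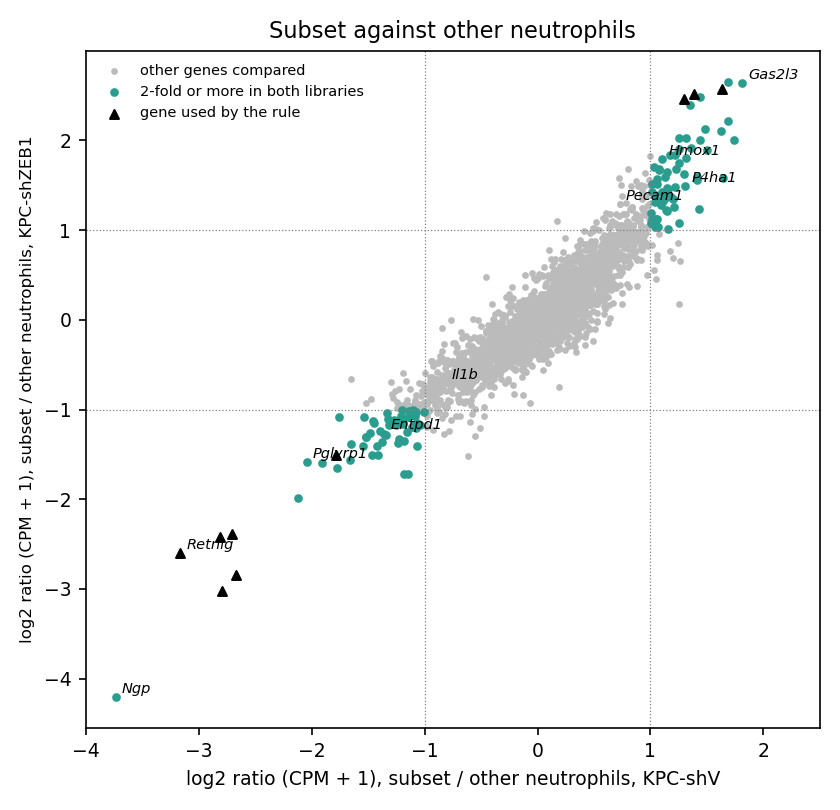
Log2 ratio (CPM + 1) of the subset over other neutrophils in the KPC-shV-labelled library (x axis) and the one labelled KPC-shZEB1 (y axis) for 2805 genes. Green points are at least 2-fold higher (66 with the rule's genes) or lower (57) in both libraries, triangles are genes the rule used, and dotted lines mark 2-fold. Most genes lie near 0, and most of the higher genes lie further from 0 in the KPC-shZEB1-labelled library, as Gas2l3 does with ratios of 3.62 and 6.67.

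Cytokine genes went in both directions. Ccl3, an inflammatory chemokine, was at 10678 CPM (10590.3–10767) against 6263 CPM and 7522 CPM (7382–7664) against 3966 CPM, ratios of 1.705 (1.69–1.72) and 1.896 (1.85–1.94). Il1b was lower, at 11020.1 CPM (10930.5–11110.3) against 19404 CPM and 11623 CPM (11449–11799.5) against 19018 CPM, ratios of 0.568 (0.563–0.573) and 0.611 (0.601–0.621). Osm, a cytokine of the interleukin 6 family, was lower too, with ratios of 0.507 (0.484–0.531) and 0.526 (0.475–0.582). Tnf was at 968 against 637 CPM and 768 against 616 CPM, but against gate-passing neutrophils its ratios were 1.04 (0.998–1.09) and 0.968 (0.90001–1.04). Cxcl2, a chemokine that draws neutrophils, was at 33377 against 34992 CPM and 26551 against 26813 CPM. Of 16 cytokine genes compared, 11 were higher and 5 lower in both libraries than in other neutrophils, while 4 were higher and 6 lower against gate-passing neutrophils.

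Immunoregulatory genes were likewise split, with 6 of 16 higher and 7 lower in both libraries. Cd274, which encodes PD-L1, was at 2789.6 against 2233 CPM and 2165 against 1647 CPM, ratios of 1.25 (1.22–1.27) and 1.31 (1.26–1.37). In neutrophils past the UMI threshold held by the interferon gate, Cd274 was above the subset, at 3186 (3103–3270) and 3141 (2936–3357) CPM. It was below the subset in those held by the Cxcr2, Retnlg and Lrg1 gate, at 2376 and 1904 CPM, and in Siglecf-positive ones, at 2380 and 1303 CPM. Nos2, the inducible nitric oxide synthase, was at 100.3 against 47.03 CPM and 64.4 against 19.5 CPM, and Lgals3, galectin 3, had ratios of 1.73 (1.66–1.799) and 2.07 (1.92–2.24). Past the threshold, Nos2 was at 104 (94.2–115) and 57.6 (41.3–78.1) CPM in cells held by the Cxcr2, Retnlg and Lrg1 gate. It was at 108 (93.1–124) and 32.5 (14.9–61.7) CPM in the interferon cells and at 71.3 and 23.1 CPM in Siglecf-positive ones. Arg1 was at 70.5 against 41.3 CPM and 91.1 against 60.4 CPM, and Arg2 was lower at 802 against 967 CPM and 766 against 945 CPM. Entpd1, the ectonucleotidase CD39, was the 1 gene of the list past 2-fold lower, at 553 CPM (533–573) against 1417 CPM and 802 CPM (757–849.7) against 1934 CPM, ratios of 0.3903 (0.375–0.406) and 0.415 (0.391–0.441). Cd80, a costimulatory ligand, was at 459 against 739 CPM and 512 against 851 CPM. Ptgs2, the inducible cyclooxygenase, had ratios of 0.876 (0.858–0.895) and 0.8297 (0.799–0.861).

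Of the 15 lowest genes, 6 were used by the rule (Ifit1, Ifit3, Rsad2, Retnlg, Lrg1 and Cxcr2), and the others included Cxcl10, Fry, Herc6, Ifi47, Ifitm6, Jaml, Ngp and Pglyrp1. Ngp, a granule protein of immature neutrophils, was at 2.86 against 50.4 CPM and 2.74 against 67.99 CPM but at 2.04 and 1.73 CPM in gate-passing neutrophils, so it was not lower in the subset than in those. Interferon-response genes outside the gate were also lower, with 8 of 8 compared, 6 of them past 2-fold, but the gate on related genes takes interferon-high cells out of the subset and leaves them among the other neutrophils, so nothing is read from this count. Against gate-passing neutrophils, Oasl1, an oligoadenylate synthetase-like protein, had ratios of 1.42 (1.12–1.81) and 1.005 (0.713–1.403) in place of 0.413 and 0.437, and Ifi204 was higher in the subset, with ratios of 1.42 (1.26–1.59) and 1.77 (1.51–2.08). Herc6 went from 0.288 and 0.314 to 0.963 (0.791–1.17) and 0.547 (0.413–0.716). Of 6 listed genes compared with gate-passing neutrophils, 5 were lower, 1 higher and 3 past 2-fold lower in both libraries, beside 26 of 2871 genes (0.906%). Gbp2 and Ifi47 were among them. Gbp2, a guanylate-binding protein, was at 132 CPM in the subset and 348 in gate-passing neutrophils of the KPC-shV-labelled library, and at 281 and 742 in the KPC-shZEB1-labelled library. Cxcl10, a chemokine of the interferon response, was at 91.1 against 236 and 171 against 415 CPM in the same comparison. Entpd1 was lower there too, with ratios of 0.446 (0.426–0.468) and 0.473 (0.443–0.504). Il1r2, the decoy receptor of interleukin 1, was at 729 against 1545 and 1069 against 1947 CPM.

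Survival genes differed little. Of 12 compared, 4 were higher and 6 lower in both libraries and none passed 2-fold. Mcl1, an inhibitor of apoptosis, was at 2735 against 2833 CPM and 2585 against 2548 CPM, and Bax, a mediator of apoptosis, had ratios of 1.59 (1.45–1.76) and 1.52 (1.29–1.78). Of 5 lipid genes compared, Acsl1, which activates fatty acids, had the highest ratios, 1.87 (1.71–2.03) and 1.92 (1.68–2.19), and Olr1, a scavenger receptor of oxidized lipoprotein, was at 330.2 against 413 CPM and 441 against 541 CPM.

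Among neutrophils that passed every gate, these genes differed in steps with the number of rule-gene UMIs. The hypoxia list was 0.39 and 0.40 above cells without rule-gene UMIs on the log2 scale at 1 to 2 UMIs, 0.57 and 0.89 at 3 to 4, 1.28 and 1.57 at 5 to 9, and 1.71 and 2.19 at 10 or more. The glycolysis list was 0.42 and 0.28, 0.84 and 0.97, 1.21 and 1.17, and 1.55 and 1.34 in the same order. Median depth lay between 2886 and 3055 UMIs over the 5 bins in the KPC-shV-labelled library and between 2672.5 and 3050.0 in the KPC-shZEB1-labelled library, so the steps did not come with a large change in depth.

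Hilpda went from 759 (713–807) in cells without rule-gene UMIs to 2707 (2635–2781) CPM at 10 or more, and from 451 (418–486) to 2195 (2051–2346) CPM. Hmox1 went from 72.3 (58.7–88.2) to 668 (632–705) and from 45.9 (35.8–58.04) to 442 (378–512) CPM. Il1b went the other way, from 22373 (22121–22628) to 8092 (7967–8219) and from 20560.0 (20333–20789) to 8922 (8629.5–9222) CPM. Gbp2 went from 421 (387–458) to 89.2 (76.4–103) CPM in the KPC-shV-labelled library, and in the KPC-shZEB1-labelled library from 827 (782–874) to 204 (169.7–243) at 5 to 9 UMIs and 231 (186–284) at 10 or more, the last 2 within counting error. Ccl3 peaked at 5 to 9 UMIs, at 11857 (11704–12011) and 8082 (7858–8311) CPM, and was 10077 (9937–10219) and 6894 (6638–7159) CPM at 10 or more. Across the threshold itself, Fam162a was 271 (239–305) and 179 (143–221) CPM at exactly 2 UMIs and 335 (294–379) and 292 (228–369) CPM at exactly 3.

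**Figure D4:**
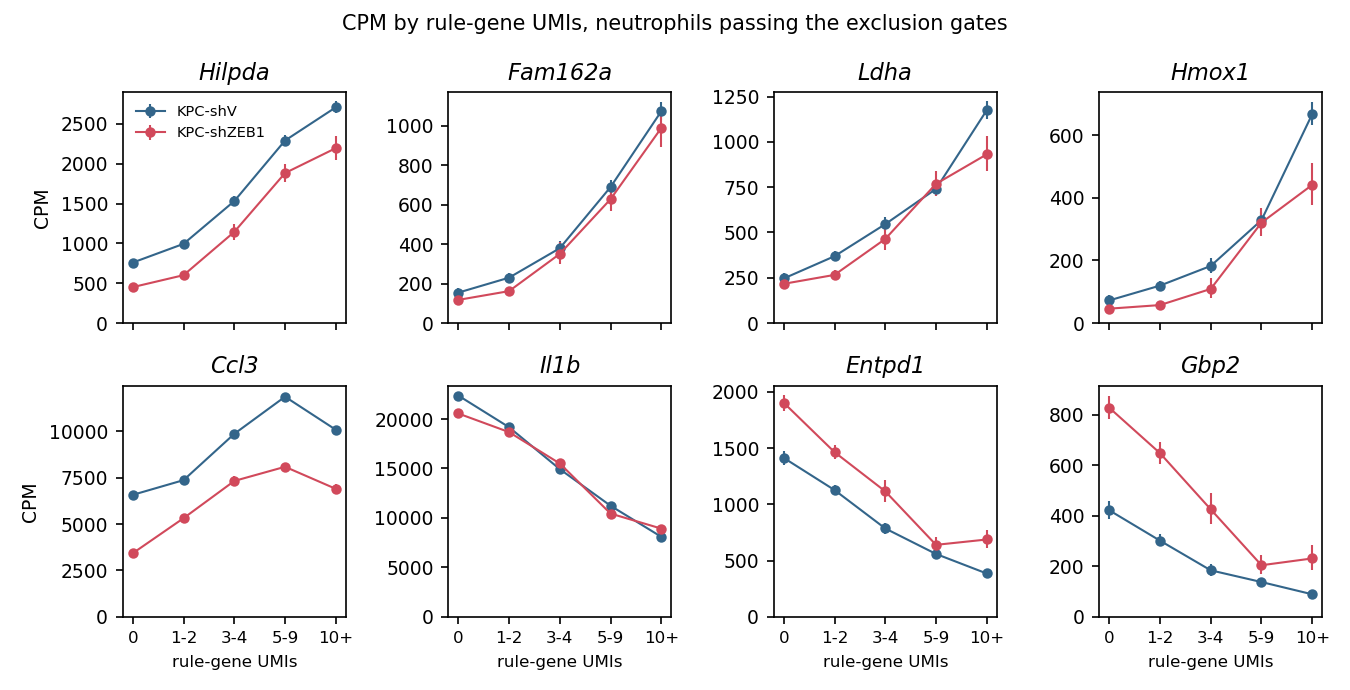
CPM (y axis, from 0) of 8 genes by the number of Ero1l, Bnip3 and Mreg UMIs (x axis) in neutrophils that passed every exclusion gate, in the KPC-shV-labelled library and the KPC-shZEB1-labelled library. Points are sums over the cells of a bin and lines exact 95% counting intervals. Hilpda, Fam162a, Ldha and Hmox1 are highest and Il1b, Entpd1 and Gbp2 lowest in bins of many UMIs, and Ccl3 peaks at 5 to 9 UMIs.

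The 3 rule genes did not select the same cells. Members with Mreg UMIs and none of Ero1l or Bnip3 numbered 87 and 28. Their hypoxia list was 0.35 and 0.30 above gate-passing neutrophils without rule-gene UMIs, against 1.43 and 1.68 in the 480 and 184 members with Ero1l or Bnip3 UMIs and none of Mreg, and 1.44 and 1.65 in the 1078 and 261 members with both. Fam162a was at 142 (101–193) and 123 (61.3–219.8) CPM in the first group and at 770.0 (726–816) and 653 (587–724) CPM in the second. Ldha was at 279 (221–348) and 212 (128–331) against 842 (796–889.7) and 715 (646–789) CPM. The hypoxia list was much lower in members with Mreg alone than in those with Ero1l or Bnip3, and the former were 5.29% (4.26–6.48) and 5.92% (3.97–8.44) of members. These groups were sorted on UMIs of the rule's own genes, and members with Mreg alone hold at least 3 Mreg UMIs. Differences between the groups, here and in the next paragraph, are therefore a description.

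Other genes were higher in members with Mreg UMIs. Atp6v0d2 was at 237 (184–301) and 212 (128–331) CPM in members with Mreg alone, at 172 (159–186) and 179.9 (152–211) in those with both, and at 83.3 (69.4–99.3) and 85.7 (62.96–114) in those without Mreg. Ccl3 and Cd274 were lower without Mreg, at 8761 (8612–8912) and 5980.0 (5777–6188) CPM for Ccl3 and 2514 (2434–2595) and 1832 (1721–1949) for Cd274, against 11243 (10856–11641) and 8064 (7487–8675) and 3265 (3058–3483) and 3384 (3014–3788) with Mreg alone. In both libraries Il1b was lowest where both kinds of UMI were present, at 9754 (9650.5–9859) and 9347 (9139–9558) CPM.

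UMIs of the 3 genes still went together once depth was made equal. The cells were all 2774 and 1484 neutrophils that passed every gate, members included, each thinned to 1000 UMIs. A Bnip3 UMI was seen in 41.6% (38.9–44.4) and 27.9% (23.7–32.3) of cells with an Ero1l UMI and in 15.3% (13.6–17.3) and 7.41% (5.89–9.18) of cells without. For Mreg the shares were 34.7% (32.1–37.4) and 23.8% (19.9–28.1) with an Ero1l UMI and 23.4% (21.3–25.6) and 12.03% (10.1–14.2) without.

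The cells kept out by the gates carried the same signal with other genes. Among neutrophils past the UMI threshold, the hypoxia list was 0.92 and 1.08 in those held by the Cxcr2, Retnlg and Lrg1 gate, 1.00 and 1.32 in those held by the interferon gate, 0.67 and 1.11 in Siglecf-positive cells and 1.40 and 1.68 in the subset, all against gate-passing neutrophils without rule-gene UMIs. Hilpda was at 2194 (2126–2264) and 1939 (1778–2109.7) CPM in the interferon cells, near its level in the subset, and at 927 (847–1013) and 1014 (895–1144) CPM in the Siglecf-positive cells. Atp6v0d2 was at 63.6 (55.8–72.2) and 89.9 (69.2–115) CPM in the Cxcr2, Retnlg and Lrg1 cells, below its 150.2 and 147 CPM in the subset. Il1b was between 14708 and 16617 CPM in the 3 gated groups of the KPC-shV-labelled library and at 11020.1 in the subset, while in the KPC-shZEB1-labelled library the interferon cells, at 11372 (10978–11776) CPM, did not differ from the subset, at 11623, beyond counting error. The gated groups overlap, since a cell can be held by more than 1 gate.

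Members were compared between libraries, where the same UMI threshold chose them in both, which limits how far the rule's genes and genes that go with them can differ. Of 2993 genes with at least 50 CPM in the subset of either library and 20 UMIs in all, 48 (1.6%) were at least 2-fold higher and 2 (0.0668%) at least 2-fold lower in the KPC-shZEB1-labelled library. The median log2 ratio over all of them was 0.05. The hypoxia list had a median of -0.23, with 14 of 16 genes lower in the KPC-shZEB1-labelled library and none past 2-fold, and the glycolysis list -0.02. Higd1a had a ratio of 0.625 (0.5599–0.695), Hmox1 0.688 (0.618–0.764), P4ha1 0.714 (0.654–0.779), Hilpda 0.771 (0.738–0.805) and Fam162a 0.848 (0.789–0.911). Vegfa, at 0.988 (0.869–1.12), and Gpi1, at 0.984 (0.897–1.08), did not differ beyond counting error.

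The other neutrophils differed more between libraries in the same genes. Over them the hypoxia list had a median of -0.60 and the glycolysis list -0.33, with Hilpda at 0.529 (0.511–0.548) and Fam162a at 0.529 (0.497–0.563). This goes with the smaller share of gated cells past the UMI threshold among the other neutrophils of the KPC-shZEB1-labelled library, given above. Its part in the difference was not tested. Over all neutrophils the medians were -0.59 and -0.28. In 463 and 582 macrophages, gated on C1q and Csf1r, the hypoxia list had a median of -0.09 over 14 genes, and in the 420 and 275 keratin-positive cells a median of -0.35 over 18 genes, 18 of them lower. The medians over all genes compared were -0.003 in macrophages and -0.001 in keratin-positive cells.

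Many of the genes past 2-fold between libraries were past it in the other neutrophils too. Of the 48 higher, 31 were also at least 2-fold higher in the other neutrophils, and of the 2 lower both were. The share of all genes compared that pass 2-fold in the other neutrophils is not given here, so this overlap has no reference. Apoe, a lipoprotein of macrophages, had a ratio of 3.08 (2.903–3.27) in the subset and 3.09 (2.98–3.19) in other neutrophils, and Ctrb1, a digestive enzyme of acinar cells, 7.43 (6.13–9.05) and 7.63 (6.86–8.498). The acinar genes Prss2, Try4, Try5, Reg2 and 2210010C04Rik, the class II gene H2-Ab1 and Igkc of B cells were likewise among the 12 highest in the subset, and Igkc was at 4.81 (3.39–6.86) and 3.51 (2.9999–4.12). Macrophage markers had a median of 1.26 in the subset and 1.25 in other neutrophils, over 6 genes. The 6 acinar markers summed to 69.96 and 486 CPM in the subset and 95.2 and 622 in other neutrophils. The part of free RNA in these ratios was not tested.

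Gbp2, Gbp5 and Iigp1, genes of the interferon response, were higher in the subset of the KPC-shZEB1-labelled library. Gbp2 had a ratio of 2.13 (1.88–2.41) in the subset and 2.05 (1.96–2.14) in other neutrophils, Gbp5 2.46 (2.03–2.99) and 2.11 (1.98–2.25), and Iigp1 3.64 (2.64–5.02) and 2.46 (2.09–2.9005). Nr4a2, an early-response nuclear receptor, was at 60.05 and 154 CPM in members. The 2 genes past 2-fold lower were Wfdc21, a secreted protease inhibitor homologue, with a ratio of 0.434 (0.374–0.503) in the subset and 0.395 (0.367–0.424) in other neutrophils, and Car4, a carbonic anhydrase, with 0.462 (0.393–0.541) and 0.411 (0.371–0.456). Prok2 and Echdc3, both among the 15 highest genes of the subset, were also lower, with ratios of 0.595 (0.465–0.753) and 0.575 (0.453–0.723) in the subset and 0.283 (0.208–0.378) and 0.382 (0.296–0.488) in other neutrophils. Ccl3 and Ccl4 were lower, with ratios of 0.704 (0.6901–0.719) and 0.647 (0.632–0.662), and Entpd1 and Il1r2, which were low in the subset in each library, were higher, with 1.45 (1.35–1.55) and 1.47 (1.38–1.56).

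**Figure D5:**
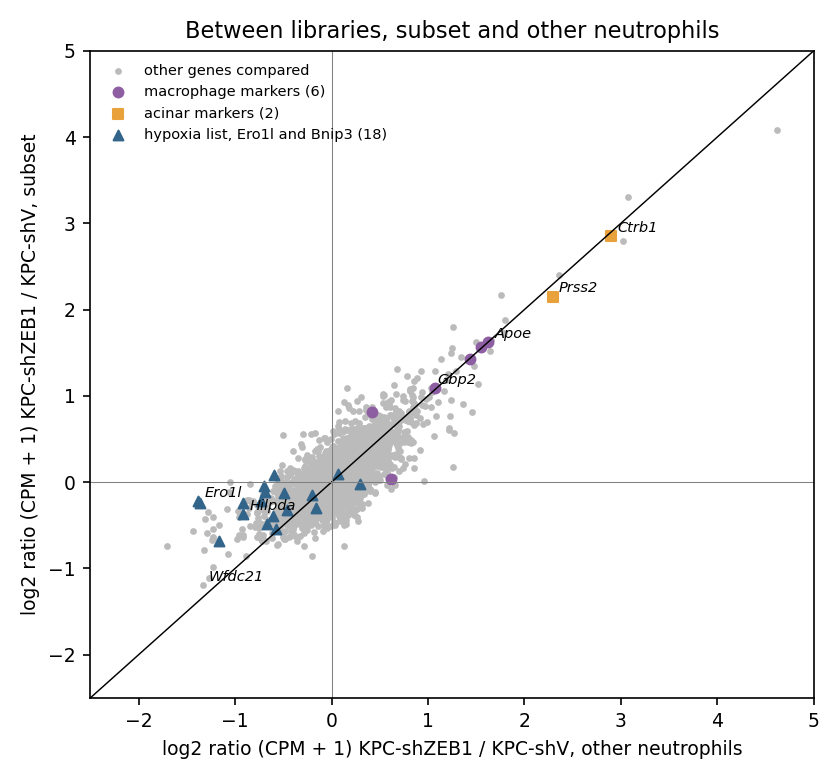
Log2 ratio (CPM + 1) of KPC-shZEB1 over KPC-shV in other neutrophils (x axis) and in the subset (y axis) for 2993 genes. Purple circles are macrophage markers, orange squares acinar markers and blue triangles the hypoxia list with Ero1l and Bnip3, and the black line marks equal ratios. Macrophage and acinar markers lie along the line, with Ctrb1 at a ratio of 7.43 in the subset, and most hypoxia genes lie above it, nearer to 0 in the subset.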

How the data were processed

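The authors aligned the reads of both libraries to mm10 with Cell Ranger 7.0.1, as the submitters' processing notes give it, and deposited raw counts of UMIs per gene and barcode. Whether intron reads were counted is not given in the sources used here. A barcode was kept with 500 genes or more, a total between 1000 and 60000 UMIs and no more than 15% of UMIs from mitochondrial genes, the study's own limits. Groups of cells were compared by summed counts per 1000000 UMIs (CPM), with exact Poisson intervals, exact Clopper-Pearson intervals for shares and exact intervals of ratios conditional on the sum of counts, all at 95%. PCR and capture add error that these intervals do not cover. Doublet scores came from Scrublet in scanpy 1.11.5 with a fixed threshold of 0.2, run per library on barcodes with 200 genes and 500 UMIs, and doublets were not removed in the values reported, where the study used DoubletFinder. The study's clustering and Harmony alignment were not used, since the rule acts on UMI counts of each cell.

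With 1 library per group no test was possible, and genes were described where they differed by at least 2-fold. The script was tested on simulated data. The members and the gene lists were chosen with earlier results of these data known. Named genes were the markers, the members of the lists, the 15 highest and 15 lowest by the smaller log2 ratio of the 2 libraries, and the 12 highest and 12 lowest between libraries. Genes named outside that rule, among them those of the comparison with gate-passing neutrophils, are Gbe1, Gys1, Pgm1, Gbp5 and Nr4a2, chosen after their values were seen. Mx1 and Mx2 of the interferon list are not analysed here, and a few other listed genes are counted but not reported by name. Promoter windows come from RefSeq (GRCm38.p6), the first window of each gene, matched by Ensembl identifier or symbol. Coordinates and the 32158 of 32285 gene identifiers matched come from GENCODE M21, of the same build.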

Additional observations from a re-analysis of the deposited data

How the results depend on the processing

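No paired analysis was possible because each group has 1 library, and no replicate could be left out. The share of neutrophils in the subset stayed lower in the KPC-shZEB1-labelled library under each of 12 alternatives, of which leaving out the barcodes that the libraries share was chosen after seeing the data. Its ratio of 0.588 moved beyond its counting interval to 0.665 with 2 UMIs in place of 3, 0.658 without Bnip3 in the rule, 0.508 after thinning and 0.271 over all kept cells. Genes at least 2-fold higher numbered 66, and 124 with a minimum of 10 CPM, 162 with none, 110 against gate-passing neutrophils and 104 with 5 UMIs in the rule. Genes at least 2-fold lower numbered 57, and 107 with no minimum, 26 against gate-passing neutrophils and 93 with 5 UMIs. The hypoxia medians moved to 1.13 against gate-passing neutrophils in the KPC-shV-labelled library, and to 0.61 and 0.64 with members chosen by 2 Mreg UMIs alone. The glycolysis medians moved to 0.93 and 1.05 against gate-passing neutrophils, over the genes compared with all others, to 0.65 with the mean of per-cell CPM in the KPC-shV-labelled library, and to 0.32 and 0.51 with Mreg alone. Between libraries, genes at least 2-fold higher and lower in the subset numbered 48 and 2, and 269 and 30 with a minimum of 10 CPM, and 1042 and 432 with none. Over all neutrophils, an alternative chosen after seeing the data, the medians between libraries were -0.59 for hypoxia and -0.28 for glycolysis. None of these changed sign. Lower minimums add genes with few UMIs in 473 cells, where counting error alone can pass 2-fold. The gate-passing neutrophils all lie below the UMI threshold, while all other neutrophils include cells past it. Otherwise the cause of a move was not tested.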

Other observations

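Outside the cell filters, 47 of 881 barcodes of the KPC-shV-labelled library and 18 of 824 of the KPC-shZEB1-labelled library also met the subset's conditions, at median depths of 754 and 847.5 UMIs.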
